A study of Mus musculus with 20 samples.

Results

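The genes described here are the nuclear genes of oxidative phosphorylation in NSC-34 cells, a mouse line made by fusing neuroblastoma cells with embryonic spinal cord cells rich in motor neurons. They were chosen by symbol alone, as the genes whose name starts with Nduf, Cox4, Cox5, Cox6, Cox7, Cox8, Uqcr or Atp5, together with Sdha, Sdhb, Sdhc and Sdhd, and without pseudogenes named as such. This gave 90 of the 14924 genes in the table of RNA-Seq and POL-Seq counts, and all 90 passed the filter on low counts, as did 14906 genes in all. The group comprised 7 core subunits, 29 accessory subunits and 7 assembly factors of complex I, 4 subunits of complex II, 8 of complex III, 11 of complex IV, 7 tissue isoforms or relatives of complex IV subunits, 15 subunits of the ATP synthase and 2 genes named after it.

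The study asked which RNAs the neuronal RNA-binding protein HuD (gene Elavl4) binds and what it does to their translation. HuD cells carried a transduced tetracycline receptor (Trex) and a lentiviral, inducible human HuD with a His-HA tag. For RNA-Seq of total RNA and POL-Seq of RNA from polysomal sucrose fractions, HuD cells received tetracycline at 2 μg/ml over 48 h, and there were 2 HuD and 2 control libraries of each kind. 3′ end sequencing had the same induction and 3 libraries a group. For these 3 assays the labels call the other cells control and give neither a vector nor a treatment, so the effects of HuD and of tetracycline cannot be told apart. For CRAC, which maps sites crosslinked to the tagged protein, 3 libraries came from HuD cells and 3 from Trex cells without the tagged HuD, all given tetracycline at 10 μg/ml over 24 h, and the authors pooled the libraries of each group. These agents, doses and times follow the labels. The paper names doxycycline at 2 μg/ml for the inducible line, and its results text gives this over 48 h for CRAC, unlike its methods. The line is a model of the motor neuron rather than tissue, the HuD protein was tagged and human, and whether the line was 1 clone is not given in the sources used here.

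Oxidative phosphorylation moves electrons from NADH and succinate through complexes I to IV of the inner mitochondrial membrane to oxygen, and the proton gradient this builds drives the ATP synthase. Most subunits are encoded in the nucleus, translated in the cytosol and imported, while a few catalytic core subunits are encoded and translated inside mitochondria. Neurons depend strongly on this pathway, and ELAV proteins such as HuD bind U-rich stretches, mostly in 3′ untranslated regions (UTRs), and can change the stability or translation of the mRNA.

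HuD crosslinked sites were listed on 12 of the 90 genes, or 13.3%, beside 9.90% of all 12953 protein coding genes with RNA-Seq counts. The authors required a minimum of reads and deletions for a site. These genes were highly expressed, as given below, and the part of expression level in this share was not tested. Complex IV held 5 of them, of its 11 subunits: Cox5a and Cox5b, which sit on the matrix side, the small membrane subunits Cox6c and Cox8a, and Ndufa4, which was named after complex I but belongs to complex IV. A further site lay on Cox7a2l, a relative of complex IV subunits that takes part in joining respiratory complexes. Complex I had 4, all accessory subunits: Ndufa6, Ndufb4, Ndufc2 and Ndufs5. Complex III had Uqcrb and the ATP synthase had Atp5l, the g subunit of its membrane part. None was listed on the 7 core subunits and 7 assembly factors of complex I or on the 4 subunits of complex II. Some of these mRNAs, Atp5l and Uqcrb among them, share sequence with other genes, as given below.

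The sequences show what the crosslinked windows look like on these mRNAs. Each line is a stretch of 30 nt of the mRNA from GENCODE vM21 on GRCm38, read 5′ to 3′, and capitals mark the listed binding windows. Windows that touch or lie close together share a stretch.
Cox6c: aaggaauaguuUCUUUCAauaaacaguaau
Ndufa4, upstream window: gccauccgcacAAUUUUCcacuuaagcagg
Ndufa4, downstream windows: gaaaucauguuGAUUUUUUuuuuuuuugga
Cox5a: gccuggaaaUGUUUUAUUUGAacaaauuuu
Cox5b: ccccuguguuaUCUUUUCagaauguaaaga
Cox8a, upstream window: uugacuagaccACUUUUGccagcccaccuu
Cox8a, downstream window: gguggggucccCCUUUGUaacaauaaaguc
Cox7a2l: agucuacuuaaCAUUUUGcaaacaaaggaa
Uqcrb: caccauACUUUUAcaaAGUUAUUucaaccc
Atp5l: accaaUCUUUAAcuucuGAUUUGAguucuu
Ndufa6: gugcauguuaaUAUUUAAcuagaguauaaa
Ndufc2, coding sequence: aacgucaaaacUAUUUGUaugcugugaagg
Ndufc2, 3′ UTR: gaguuuuauggGAUUUUCugugacagugaa
Ndufb4, coding sequence: agaucagcaaaUAUUUAUccuaauuucagg
Ndufs5, coding sequence: ccuggaccggcACUUUAUguuccuaagcgc

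The 12 genes held 19 unique windows, of which 18 had UUU at positions 3 to 5, counted from 1 at the 5′ end of the window. The letter before it was A in 10 windows, C in 7 and G in 1, and the exception was 1 of the windows on Uqcrb. The authors chose windows by a score against a U-rich matrix, so this pattern follows in part from how the list was made. By the vM21 annotation, 16 windows lay in a 3′ UTR and 3 in a coding sequence, those of Ndufb4, Ndufs5 and the upstream window of Ndufc2. Coverage ran from 7 to 147 reads with a median of 54, beside a median of 26 over the 2598 unique windows on protein coding genes, without allowance for expression level. The 19 windows summed to a coverage of 1219 reads for HuD and of 2 for the control, 1 each on Cox8a and Ndufa4, with reads in overlapping windows counted in each. The reads were pooled over libraries, the total per library is unknown, and no replicate error can be given.

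Cox6c had the window with the most reads among these genes, 147 with 5 deletions (a deletion marks the crosslinked base), in the 3′ UTR at chr15:35932002-35932008 on the minus strand, 26 nt before the annotated end of the transcript. Ndufa4 had the most reads over all its windows, 256, and the most deletions, 49, in the 3′ UTR on the minus strand of chromosome 6. Its downstream windows at chr6:11900419-11900426 and chr6:11900420-11900426 are nearly the same interval and share reads, with 95 and 94 covering reads and 6 and 18 deletions. The upstream window at chr6:11900470-11900476 had 67 reads with 25 deletions. Among 1304 protein coding target genes ranked by summed coverage, Ndufa4 stood at 115 and Cox6c at 194, so many other mRNAs were covered by more reads.

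Cox7a2l, at chr17:83502509-83502515 on the minus strand, had 93 reads with 15 deletions, 591 nt before the transcript end and thus the farthest from it of the 3′ UTR windows. The upstream window of Cox8a at chr19:7215348-7215354, also on the minus strand, had 45 reads with 16 deletions, and the downstream window at chr19:7215187-7215193 had 16 reads with 3. Cox5a had overlapping windows at chr9:57532340-57532346 and chr9:57532345-57532351 on the plus strand with 54 and 63 reads. Cox5b, at chr1:36693322-36693328 on the plus strand, had 47. Over all their windows, Ndufa4, Cox8a and Cox7a2l had 15 or more deletions each, and each of the other 9 genes had 10 or fewer.

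Uqcrb, which encodes a small subunit of complex III that contacts ubiquinone, had windows at chr13:66900692-66900698 and chr13:66900702-66900708 on the minus strand with 90 and 54 reads. Ndufb4 had 96 reads at chr16:37649110-37649116 on the minus strand, and Ndufc2 had 48 at chr7:97406937-97406943 and 50 at chr7:97407733-97407739 on the plus strand. Atp5l had 77 and 47 at chr9:44913342-44913348 and chr9:44913354-44913360 on the minus strand. Ndufa6 had 29 reads at chr15:82350205-82350211 on the minus strand, and Ndufs5 had 7, the fewest, at chr4:123716024-123716030. Ndufs5 stood at 1151 of the 1304 targets by coverage.

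**Figure D1:**
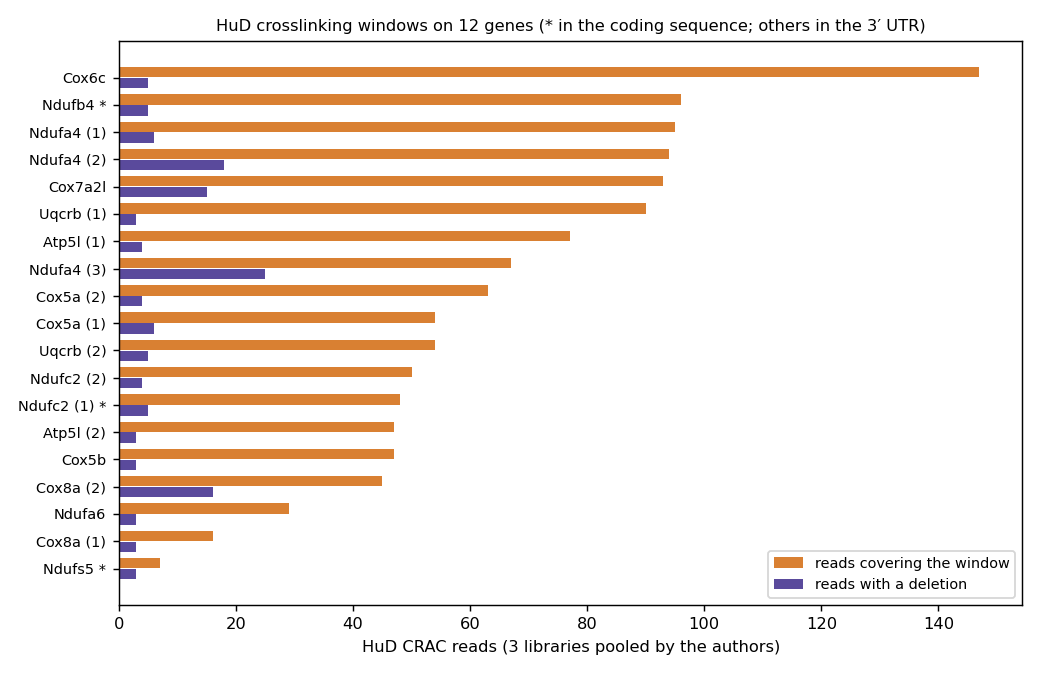
Reads covering each of the 19 unique HuD windows and reads with a deletion in it (horizontal axis, reads pooled over 3 HuD libraries), with windows of a gene numbered by position along the chromosome. Cox6c has the highest bar at 147 reads, and the third window of Ndufa4 has the most deletions at 25.

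In control cells, without the induced transgene, these genes were among the most expressed. Levels are compared between genes as FPKM, computed from the counts with the length of 1 representative transcript. In total RNA of control cells the 90 genes had a median of 244 FPKM, beside 11.2 over the 12864 genes with a length, and 67 of the 90 lay above 74.9 FPKM, the level that marks the top 10% of genes. Subunits of complex IV were highest as a group with a median of 920 FPKM, followed by the ATP synthase with 446, complex III with 418, accessory subunits of complex I with 222 and complex II with 211. Core subunits of complex I had a median of 109, and its assembly factors, which build the complex but do not stay in it, 17.3. The coding sequences were short, with a median of 436 nt beside 1383 nt over all genes with counts, and so were the 3′ UTRs, with 156 nt beside 876 nt.

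Within complexes the spread was wide. In the ATP synthase, Atp5b, the catalytic beta subunit, was highest with 1922 ± 50.9 FPKM (SD, n = 2) and Atp5l lowest with 7.22 ± 0.185. In complex IV, Cox4i1 had 1366 ± 72.3 and Ndufa4 1337 ± 84.4, which did not differ beyond their spread, and Cox7c was lowest with 388 ± 18.9. In complex III, Uqcrq was highest with 1334 ± 36.2 and Uqcrfs1, the Rieske iron-sulfur protein, lowest with 81.9 ± 1.21.

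The same held in the other complexes. Among accessory subunits of complex I, Ndufb9 had 483 ± 55.3 FPKM and Ndufb4 12.3 ± 0.332 (SD, n = 2). Among its core subunits, Ndufs7 had 322 ± 16.3 and Ndufs1, the largest, 35.5 ± 5.21. Its assembly factors ran from Ndufaf1 with 9.62 ± 1.15 to Ndufaf2 with 63.6 ± 2.48.

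Complex II oxidises succinate and has no subunit made in mitochondria. Its iron-sulfur subunit Sdhb had 570 ± 3.85 FPKM, its membrane anchors Sdhd and Sdhc 296 ± 2.88 and 126 ± 7.18, and its catalytic flavoprotein Sdha 50.6 ± 6.93 (SD, n = 2). The 4 levels did not overlap, in the order Sdhb, Sdhd, Sdhc, Sdha, but this order depends on the measure. The transcripts used had 3171 nt for Sdhc and 1231 nt for Sdhd, and in CPM, without length, Sdhc lay above Sdhd. In 3′ end counts of control cells Sdhb was again highest with 873 CPM. Sdhd lay below Sdha there, with 12.5 and 30.9 CPM, and Sdhc had no counts.

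Where a subunit has isoforms, the widely expressed form prevailed. Cox4i1 stood at 1366 FPKM against 4.41 ± 0.509 for the lung isoform Cox4i2, and Cox6a1 at 998 ± 107 against 14.3 ± 0.170 for the heart and muscle isoform Cox6a2 (SD, n = 2). Cox6b1 had 942 ± 102 against 4.07 ± 0.587 for the testis isoform Cox6b2, and Cox7a2 had 920 ± 100 against 10.1 ± 0.488 for the muscle isoform Cox7a1, with Cox7a2l at 158 ± 17.0. Ndufa4 had 1337 against 1.68 ± 0.0507 for its paralog Ndufa4l2, the lowest of the 90 genes. The 3 genes for the c subunit of the ATP synthase ring encode the same mature protein and were all expressed, with 655 ± 34.5 for Atp5g3, 327 ± 6.75 for Atp5g2 and 291 ± 1.44 for Atp5g1. The order of Atp5g2 and Atp5g1 depends on length. The Atp5g2 transcript used had 441 nt and no 3′ UTR, and in CPM Atp5g1 was higher, with 173 beside 144. Cox8a, at 874 ± 107, was the one Cox8 gene analysed here.

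**Figure D2:**
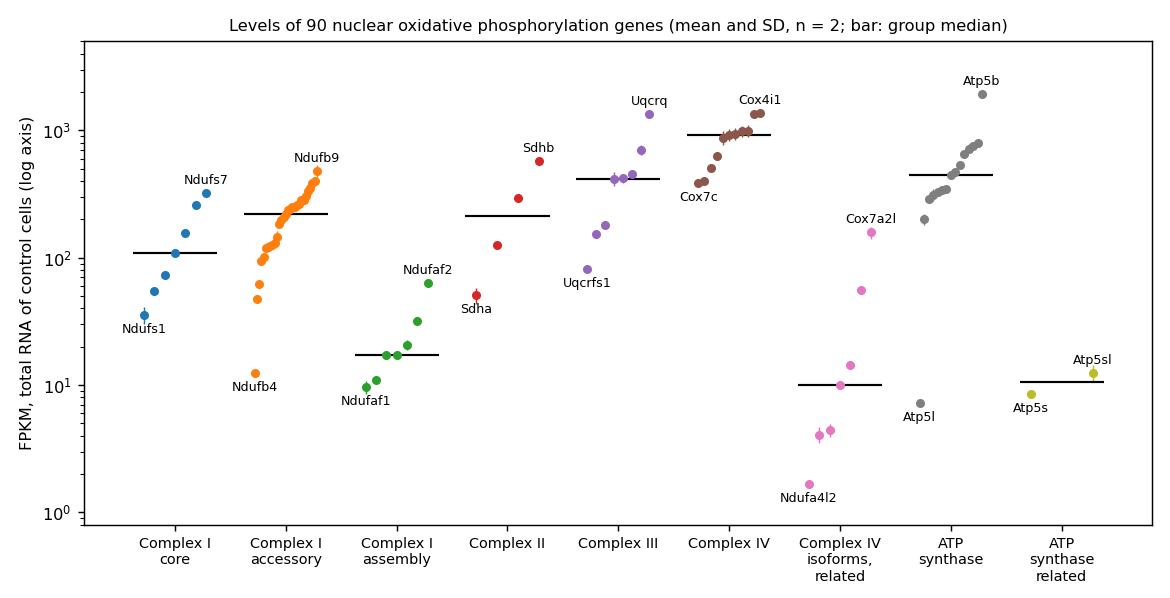
FPKM of each of the 90 genes in total RNA of control cells (vertical log axis, mean with SD of 2 libraries) by complex, with the group median as a bar and the highest and lowest gene named. Complex IV subunits lie around a median of 920, and the tissue isoforms around 10.1.

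The low values of some subunits differed between assays. Over the 81 of these genes with 3′ end counts, log2 CPM in the 3′ ends and in total RNA of control cells had a Pearson r of 0.585 and a Spearman rho of 0.577, a description across genes that share their libraries. For 10 genes the CPM was over 4 times higher in the 3′ ends, for 16 over 4 times lower, and for 55 in between. Atp5l had 3.93 CPM by RNA-Seq and 193 by 3′ ends, and Ndufb4 12.0 and 220. In the other direction Ndufs4 had 205 and 2.22, Atp5g1 173 and 2.48, and Sdhd 364 and 12.5. The 3′ end values count only reads that start within 10 nt of known polyadenylation sites.

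Sequence shared with other genes was more common in the first direction, with exceptions. Of the 495 stretches of 50 nt in the Atp5l mRNA, 420 (84.8%) occur in transcripts annotated to 14 other genes, and for Ndufb4 37.0% occur in those of 3. The median over the 10 genes higher in the 3′ ends was 34.1%, beside 0% over the 55 in between and 3.36% over the 16 lower ones. Any such stretch was shared by 9 of the 10 and by 8 of the 16. Among the 16 were Atp5g1 with 66.0% shared, Uqcrb with 43.4% and Ndufb6 with 34.1%. In all, 48 of the 90 genes share at least 1 such stretch. Reads from shared stretches can be split or lost in counting, so the levels of the 6 genes with over 50% shared, Atp5l, Cox7c, Atp5g1, Atp5g2, Atp5h and Atp5o, are uncertain, as is that of Ndufb4. The part of shared sequence in the gap between assays was not tested. CRAC reads can meet the same limit. Of the other genes with a HuD site, Uqcrb shared 43.4% of its stretches, Ndufs5 41.2%, Cox5a 32.0%, Cox5b 25.9%, Cox6c 21.1% and Cox7a2l 19.8%. Ndufa4, Ndufa6, Ndufc2 and Cox8a shared none. Whether the windows themselves lie in shared sequence was not tested.

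**Figure D3:**
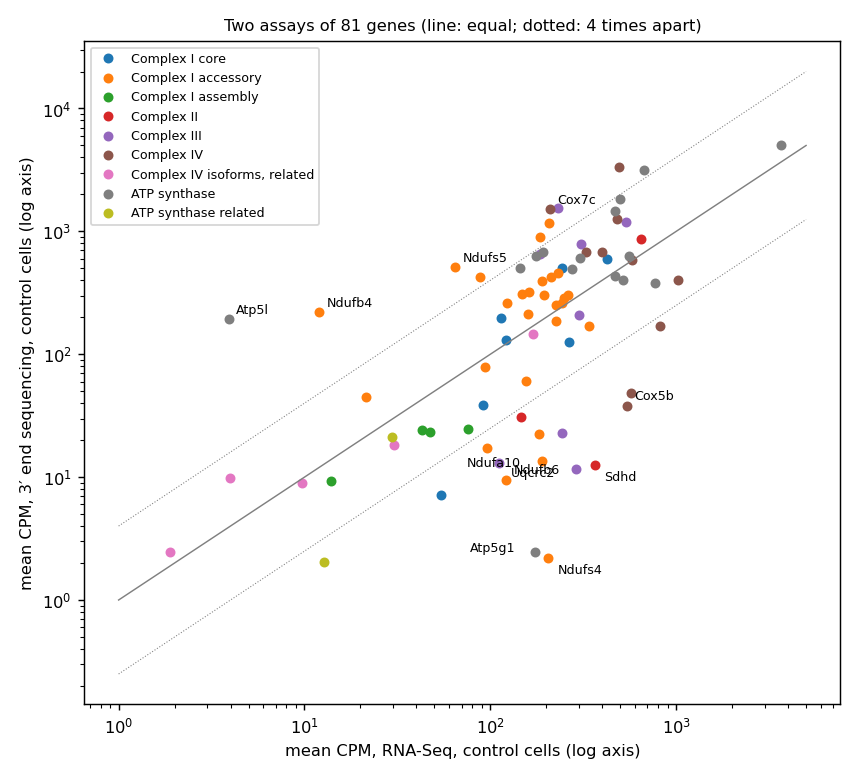
Mean CPM of 81 genes in control cells by RNA-Seq of total RNA (horizontal log axis, n = 2) and by 3′ end sequencing (vertical log axis, n = 3), with a line of equal values and dotted lines 4 times apart. Atp5l at 3.93 and 193 CPM lies farthest above the lines, and Ndufs4 at 205 and 2.22 farthest below.

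Induced HuD came with no change in the total RNA of these genes that passed a test. Elavl4, the induced gene, had 78.3 and 97.4 CPM in total RNA of control cells and 237 and 212 in HuD cells, a log2 change of 1.35 ± 0.15 (SE) with an adjusted p = 0.0866 by edgeR, where reads of the human transgene and of the mouse gene cannot be told apart. None of the 90 genes had an unadjusted p under 0.05 for HuD against control (edgeR's quasi-likelihood test), beside 2.64% of all genes tested, and no gene of the table passed an adjusted p of 0.05. DESeq2 gave 0 of the 90 as well. The changes were small, from -0.23 for Ndufa4l2 to 0.17 for Cox6a2 on the log2 scale.

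Most lay on the same side of 0. Of the 90 genes, 79 had a lower fitted level in HuD cells, beside 51.3% of all genes, and the median log2 change was -0.08 (all genes, -0.004). All 11 complex IV subunits, all 8 complex III subunits and all 4 complex II subunits were below 0, as were 14 of 15 ATP synthase subunits and 27 of 29 complex I accessory subunits, whereas 4 of the 7 tissue isoforms or relatives of complex IV were above it. For 40 genes both HuD libraries lay below both control libraries, beside 16.7% of all genes, and for 1 they lay above, beside 15.1%. Leaving out any 1 library left 66 to 81 of the 90 below 0, and without the first control library, which gave the 66, 7 of the 11 complex IV subunits were below it. Other genes moved the same way, with a median of -0.05 over the other genes of up to 861 nt coding length (the 74 such genes among the 90, -0.09), and with 8 of 10 neuronal markers and 8 of 10 regulators of the pathway below 0. Sdhc fell more than most, as the lower quartile of the 90 changes was -0.11. It had 416 and 383 CPM in control and 362 and 343 in HuD cells, groups that do not overlap. Its log2 change was -0.18 ± 0.09 (SE), with an adjusted p of 1 by edgeR.

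**Figure D4:**
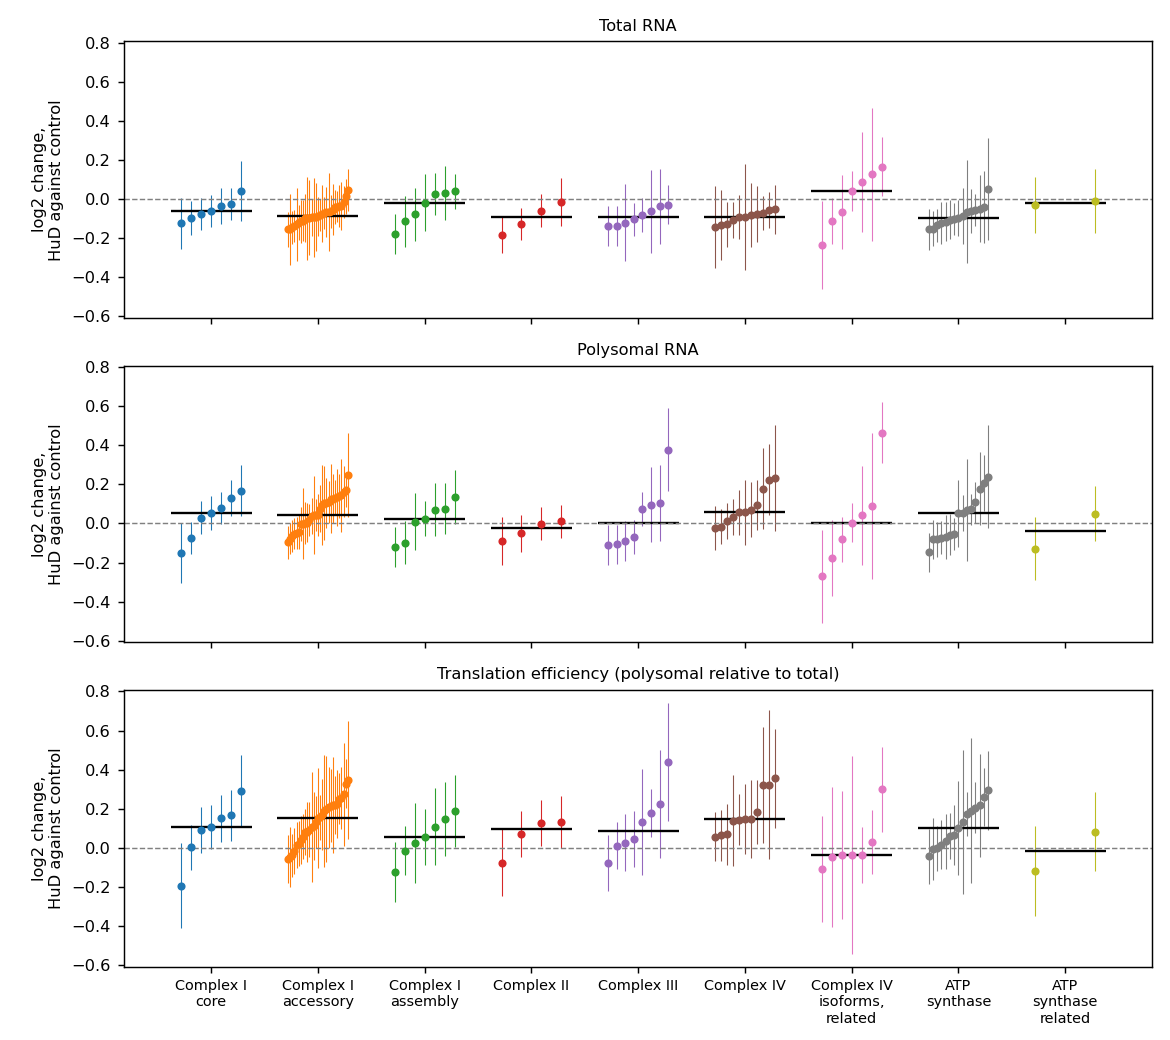
Log2 change in HuD against control cells of each of the 90 genes (vertical axis, point with SE from the edgeR fit) by complex, in total RNA, polysomal RNA and translation efficiency, with group medians as bars. Most points lie below 0 in total RNA and above 0 in translation efficiency, and most error bars reach 0.

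In polysomal RNA 1 gene passed an unadjusted p under 0.05 by edgeR, beside 4.17% of all genes. It was Cox6a2, the heart and muscle isoform of subunit 6a. Cox6a2 had 7.78 and 6.69 CPM in polysomal RNA of control cells and 8.93 and 11.2 in HuD cells. The groups did not overlap, and the log2 change was 0.47 ± 0.16 (SE), with an adjusted p = 0.969 by edgeR. Without the second control library it was 0.37 and without the second HuD library 0.30, with unadjusted edgeR p-values of 0.0592 and 0.126. Over the 90 genes the median change was 0.04, with 58 above 0 (beside 48.4% of all genes), and groups did not overlap for 7 with higher and 8 with lower values in HuD cells, beside 14.1% and 14.6% of all genes.

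The control libraries of polysomal RNA lay far apart. The second was the shallowest, with 21296012 counts, and held the 90 genes at 2.29% of its counts, beside 2.55% to 2.68% in the other polysomal libraries. Cox8a had 488 and 227 CPM in the control polysomal libraries and 416 and 425 in those of HuD cells, and Uqcrq 581 and 322 against 606 and 568. The HuD values thus lay between the control values or near the higher one. Without the second control library the median change of the 90 genes was -0.05 with 22 above 0, and 5 had an unadjusted edgeR p under 0.05 (802 of all 14906 genes). Without the first it was 0.12 with 65 above 0, and 37 had one (3262 of all genes).

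Translation efficiency (TE), the ratio of polysomal to total RNA, had 1 gene with an unadjusted p under 0.05, Ndufc2, an accessory subunit of complex I with HuD windows, beside 0.979% of all genes (edgeR, interaction of fraction and HuD). Ndufc2 had 186 and 200 CPM in total RNA of control cells and 166 and 182 in HuD cells, and 221 and 202 in polysomal RNA of control cells and 238 and 239 in HuD cells. Its total RNA was lower and its polysomal RNA higher in HuD cells, with no overlap between groups in either. The log2 change in TE was 0.33 ± 0.13 (SE), with an adjusted p = 1 by edgeR. Its unadjusted edgeR p rose to between 0.0647 and 0.114 without either polysomal library of HuD cells, total RNA library 2 of control cells or total RNA library 1 of HuD cells. TE uses the same libraries as the comparisons of total and polysomal RNA, so the 3 are not independent.

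Over the 90 genes, 72 had a TE change above 0, beside 48.2% of all genes, with a median log2 change of 0.11 (all genes, -0.006). All 11 complex IV subunits were above 0, with a median of 0.15, as were 25 of 29 accessory subunits of complex I, 12 of 15 subunits of the ATP synthase and 7 of 8 subunits of complex III. Of the 7 tissue isoforms or relatives of complex IV, 2 were above 0. The highest values were those of Uqcrq with 0.44 ± 0.30, Cox5b with 0.36 ± 0.25 and Ndufa1 with 0.35 ± 0.30 (SE), and the lowest that of Ndufs1 with -0.19 ± 0.22. None of these passed the test, with unadjusted edgeR p-values of 0.177, 0.194, 0.280 and 0.395.

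The TE values also moved with each of the control polysomal libraries. Without the second control polysomal library, 51 of the 90 genes were above 0 with a median of 0.02, and 4 of the 11 complex IV subunits. Without the first, 72 were above 0 with a median of 0.21, and 38 had an unadjusted edgeR p under 0.05, as did 2024 of all 14906 genes in place of 146. Leaving out any of the other 6 libraries left 63 to 78 above 0.

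Gene length moved with these values. With all genes split by coding length into 4 classes of like size, 74 of the 90 fell among the 3227 shortest, up to 861 nt, where the other genes had a median TE change of 0.07, beside 0.13 for the 74. Among the 3209 longest genes, which include none of the 90, the median was -0.06. The second control polysomal library had a median deviation of -0.12 for the 90 genes, of -0.10 for the other genes of the shortest class and of 0.10 for those of the longest. The first deviated the other way, with 0.10, 0.05 and -0.02. Across the 90 genes, log2 coding length and TE change had a Pearson r of -0.41 and a Spearman rho of -0.36, over genes that share all 8 libraries. The part of gene length and of these control libraries in the TE values was not tested further.

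**Figure D5:**
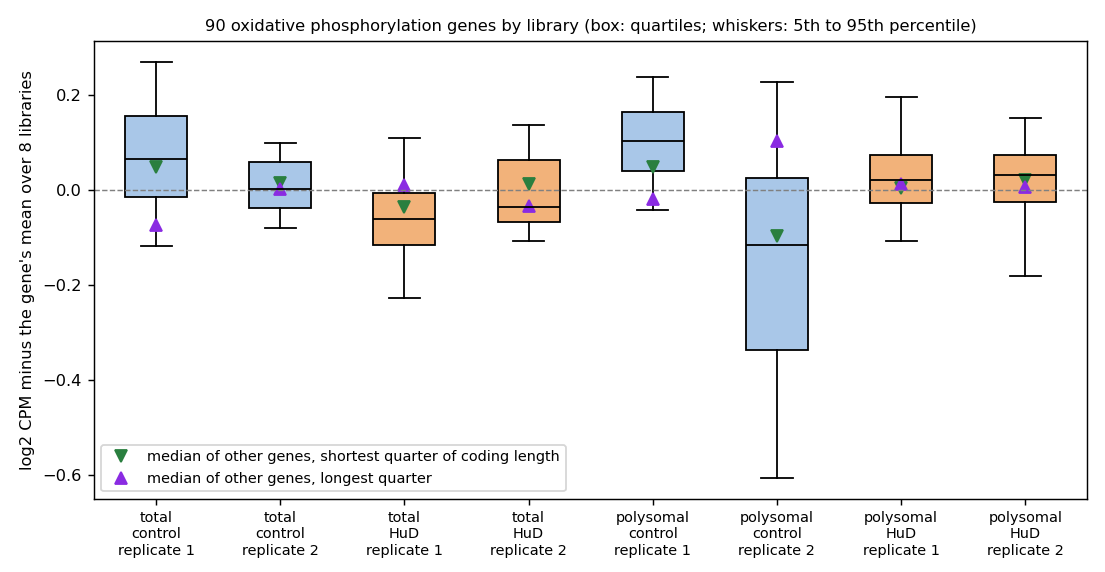
Log2 CPM of the 90 genes in each of 8 libraries relative to each gene's mean over them (box for quartiles, whiskers for the 5th to 95th percentile), with the median of the other genes in the shortest and longest of 4 classes of coding length. The second control polysomal library has the lowest box, with a median of -0.12, and its short and long genes lie on opposite sides of 0.

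Genes with and without listed HuD sites are set side by side here, without a test. TE change had a median of 0.16 over the 12 genes with sites (11 above 0) and 0.11 over the 78 without (61 above 0). Total RNA change had medians of -0.09 and -0.08, and polysomal RNA change 0.06 and 0.04. Median total RNA in control cells was 218 CPM for the 12 and 190 CPM for the 78. Cox6c, with the most covered window, had 528 and 460 CPM in total RNA and 546 and 364 in polysomal RNA of control cells, and 466 and 469, and 490 and 457, in HuD cells. Ndufa4 had 852 and 779, and 920 and 744, in control cells, and 729 and 763, and 878 and 852, in HuD cells. TE changed by 0.14 ± 0.23 for Cox6c and 0.18 ± 0.16 for Ndufa4 on the log2 scale (SE), with unadjusted edgeR p-values of 0.569 and 0.287.

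Polysomal and total RNA of these genes were also compared within each kind of cell, on the same libraries. In control cells the log2 ratio of polysomal to total RNA had a median of -0.04 over the 90 genes (all genes, 0.009), with 39 above 0 beside 51.7% of all genes. Of the 90, 0 genes passed an adjusted p of 0.05 by edgeR beside 0.174% of all genes, and 4 passed an unadjusted p under 0.05, beside 10.7%. Groups did not overlap for 14 genes with more and 7 with less polysomal RNA, beside 18.9% and 20.1%. The 4 were Cox7b2, a testis isoform, and Atp5f1, a stalk subunit of the ATP synthase, with ratios of 0.35 ± 0.12 and 0.23 ± 0.10, and Cox6a2 and Cox7c with -0.42 ± 0.16 and -0.31 ± 0.13 (SE), and without the second control polysomal library all 4 had an unadjusted p above 0.05. Short members had lower ratios in control cells, with a Pearson r of 0.531 and a Spearman rho of 0.544 between log2 coding length and ratio over the 90 genes. In HuD cells these were 0.244 and 0.236. The correlations were not repeated without single libraries. Without the second control polysomal library the median ratio was 0.05, and without the first it was -0.13 with 27 of the 90 genes past an adjusted p of 0.05, as were 2145 of all 14906 genes.

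In HuD cells the same ratio, compared after the values had been seen, had a median of 0.07, with 64 of the 90 genes above 0, beside 51.3% of all genes. For 46 genes both polysomal libraries lay above both total RNA libraries, beside 25.3% of all genes. Unadjusted edgeR p-values under 0.05 came with higher polysomal levels for 8 genes, beside 4.85% of all genes, and with lower levels for 0 beside 7.59%. They were Ndufc2, Cox7b2, Ndufb6, Atp5g3, Atp5f1, Sdhd, Sdhc and Ndufa8, and none passed the adjusted test in this fit without a replicate block. With a block, given in the closing section, Ndufc2 and Cox7b2 passed it, and the share of all genes passing there is not given. Ndufc2 had the highest ratio with 0.46 ± 0.09 (SE, adjusted p = 0.0734 by edgeR), on the values given above.

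The subunits made inside mitochondria had lower values. Of the 7 in the table, 6 had a TE change below 0, beside 51.8% of all genes, with a median of -0.24. Their median log2 ratio of polysomal to total RNA was -0.58 in control cells. These mRNAs are translated inside mitochondria, and what the ratio means for their translation was not tested. mt-Cytb, the catalytic subunit of complex III, had 14120 and 12800 CPM in total RNA of control cells and 12230 and 14390 in HuD cells, and 10250 and 6226 in polysomal RNA of control cells and 6700 and 6246 in HuD cells. Its first control polysomal library was high and the others close together. That library was also the highest polysomal one for mt-Nd4, mt-Nd5, mt-Nd6 and mt-Co1, but not for mt-Nd1 and mt-Nd2. mt-Co1 had 5848 and 2945 CPM in polysomal RNA of control cells and 3709 and 3156 in HuD cells. The TE values of these genes were not repeated without it. mt-Nd6 had the only unadjusted edgeR p under 0.05 in the comparisons of HuD with control cells, for total RNA, with 68.4 and 30.9 CPM in control and 369 and 45.6 in HuD cells, where 1 library stands apart and the groups overlap.

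Other nuclear genes of the pathway did not pass the test either. Of 35 genes for mobile carriers and for the assembly of complexes II to V, 0 had an unadjusted edgeR p under 0.05 in total RNA, polysomal RNA or TE, with 10, 20 and 23 above 0. Over all genes 2.64%, 4.17% and 0.979% had such a p, so 0 in a list this short lies near those shares. Above 0 were 48.7%, 48.4% and 48.2% of all genes. The smallest p belonged to Sdhaf3, an assembly factor of complex II, with a polysomal change of 0.32. Of 10 regulators of the pathway, 0 passed in these comparisons, which again lies near the shares of all genes. Nrf1, a transcription factor of many of these genes, had the smallest p, 0.0668 by edgeR, in total RNA, with 50.8 and 56.4 CPM in total RNA of control cells and 47.0 and 47.9 in HuD cells, which do not overlap, and a change of -0.18.

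Some of the promoters held known motifs of the pathway. RefSeq promoters of GRCm38.p6, from 250 nt before to 50 nt after the start, were found for 75 of the 90 genes, 81 promoters in all, and each motif was searched on both strands. The NRF1 motif GCGCATGC was in 14.8% of them, beside 3.52% of the 21263 promoters of protein coding genes. The ETS motif CCGGAAG, bound by the GABP factor, was in 17 of the 81 beside 11.6% of all promoters, and the YY1 motif AAGATGGC in 14.8% beside 3.05%. A match is not a binding site.

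3′ end sequencing measured 81 of the genes in other libraries. Their median change was -0.002, with 40 above and 41 below 0, beside 50.1% above 0 of all genes, and 2 had an unadjusted edgeR p under 0.05, beside 5.87% of all 9621 genes tested. Groups did not overlap for 3 genes with higher and 3 with lower values, beside 6.23% and 5.81%. The median thus lay near 0 here, in other libraries than the -0.08 of RNA-Seq, and the difference between the assays was not tested. Cox6b2, the testis isoform, had 2.78, 2.33 and 2.28 CPM in control and 1.11, 1.24 and 1.59 in HuD cells, which do not overlap, with a log2 change of -0.90 ± 0.26 (SE, adjusted p = 0.543 by edgeR). In RNA-Seq Cox6b2 had 1.70 and 2.09 CPM in control and 2.58 and 1.59 in HuD cells, which overlap. Atp5j, a subunit of the stalk of the ATP synthase, had 465, 488 and 525 CPM in control and 413, 417 and 419 in HuD cells, also without overlap, with -0.24 ± 0.11 (SE, adjusted p = 0.846 by edgeR).

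Same-numbered 3′ end libraries deviated together, and with the replicate number as a block 11 genes had an unadjusted edgeR p under 0.05, 3 higher and 8 lower, beside 18.7% of all genes. Atp5d, the delta subunit of the ATP synthase, then passed the adjusted test, beside 2.26% of all genes. It had 1468, 2356 and 1717 CPM in control and 1262, 1701 and 1359 in HuD cells, in the order of replicate numbers, and was lower in 3 of 3 pairs although the groups overlap. Its log2 change with the block was -0.34 ± 0.07 (SE, adjusted p = 0.0312 by edgeR), and without it -0.36 ± 0.19 (adjusted p = 0.882). In RNA-Seq, Atp5d had 509 and 483 CPM in total RNA of control cells and 474 and 461 in HuD cells, a change of -0.08 ± 0.14. In the fit without the block, leaving out control library 1 gave 6 of the 81 genes with an unadjusted p under 0.05 (412 of all 9621), leaving out HuD library 2 gave 4 (1280 of all), and leaving out any of the other 4 libraries gave 1.

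No difference in the choice of 3′ end passed the test. Of the 90 genes, 35 had at least 2 listed ends, and 8 still had at least 2 once ends within 20 nt of each other were merged. None of the 35 had a p under 0.05 for usage (edgeR's diffSpliceDGE with Simes' method), beside 0.151% of 3317 genes, and the smallest p was 0.479. Ndufb5, a membrane-arm subunit of complex I, used both ends on chromosome 3 most evenly, with 72.3% ± 1.92 of its reads at position 32751230 in control and 71.8% ± 0.807 in HuD cells (SD, n = 3). For Ndufb2, 3.70% ± 0.978 of reads in control and 4.99% ± 2.03 in HuD cells were at its distal end. The difference for Ndufb5 was smaller than the SD of either group, and that for Ndufb2 smaller than the SD of the HuD libraries alone.

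Library totals ran from 21296012 to 36284728 counts for RNA-Seq and POL-Seq and from 12986862 to 15751036 for 3′ ends. The 90 genes took up 2.29% to 2.68% of the counts of the former and 3.73% to 4.21% of the latter. Of 11 neuronal markers 10 were in the table, with a summed level of 1360 to 1573 CPM, to which Tubb3 alone gave 559.9 to 672.5 CPM. Mnx1 was not in the table, Stmn2 stayed at or below 0.419 CPM and the cholinergic enzyme Chat at or below 0.608 CPM. Of 6 glial markers 4 were present at 37.2 to 53.6 CPM, of 5 fibroblast markers 0, of 5 immune markers 1 at up to 1.05 CPM, and of 5 muscle markers 1 at up to 2.10 CPM. In such bulk samples, fewer cells expressing a gene and less RNA per cell cannot be told apart.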

How the data were processed

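NSC-34 cells were profiled by RNA-Seq, by POL-Seq, by sequencing of 3′ ends and by CRAC. The authors deposited raw counts per gene (RNA-Seq, POL-Seq) and per polyadenylation site (reads starting within 10 nt of it), both from reads aligned with STAR 2.5.3a to GRCm38.p4 with Gencode M6, after leaving out rows with few reads. CRAC reads were aligned with Tophat 2.0.14, and the authors deposited, pooled over replicates, coverage as a signal in reads, counts of deletions, a p-value and a score against their weight matrix for each site. The deposited p-values served only in an alternative.

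From the counts, differences were tested with edgeR 4.0.16 under R 4.3.3 (TMM, filterByExpr, quasi-likelihood, two-sided, Benjamini-Hochberg adjustment over all genes tested). One model with 4 group means covered the 8 RNA-Seq and POL-Seq libraries, with the TE change as its interaction term, and another the 6 libraries of 3′ ends, summed over unique ends of a gene. CPM values are scaled by TMM factors. FPKM used 1 transcript a gene from GENCODE vM21, chosen by APPRIS, then support level, coding length and shortness. CRAC rows were reduced to unique windows, and window positions lie 1 nt (plus strand) or 2 nt (minus strand) downstream of those deposited, where the listed sequence was found for all 19. Stretches of 50 nt were searched on both strands of all vM21 transcripts. Python 3.11.15, pandas 2.3.3, NumPy 2.4.6 and matplotlib 3.10.9 were used.

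The genes, lists and naming rules were chosen with earlier results of these data known. By rule, the text names genes with a CRAC site or an unadjusted p under 0.05, the highest and lowest of each complex, isoform groups, the Sdh genes and the smallest p of the other lists. Genes with extreme TE, assay or 3′ end values and the ratio in HuD cells were added after their values were seen. The study calls its replicates biological, and p-values measure the spread between these libraries. CRAC depth per library is unknown, so no interval is given. Same-numbered 3′ end libraries deviated together, with correlations of 0.400, 0.657 and 0.515 between HuD and control, and a replicate block is given where it changes a call. Alternatives changed normalization, filter, tool (DESeq2 1.42.0), threshold and block, and left out each library. The procedure was tested on simulated counts, drawn around a common mean per gene apart from the planted changes, without shifts linked to gene length. Of planted 1.5-fold changes, 46.3% in total RNA and 52.2% in polysomal RNA reached an adjusted edgeR p under 0.05. In TE 11.9% did, and in 3′ ends 10.4%. Smaller changes, such as most of those seen here, were not simulated.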

Additional observations from a re-analysis of the deposited data

Results flagged for a closer look

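The TE change of Ndufc2, 0.33 on the log2 scale with an adjusted p = 1 by edgeR, is listed because the HuD effects in polysomal and in total RNA differed in the interaction test at an unadjusted p under 0.05. Polysomal RNA had a log2 change of 0.17 and total RNA one of -0.15, each without overlap between 2 HuD and 2 control libraries. At this threshold 0.979% of all genes were called. Groups of 2 or 3 libraries are too small for a test of single outlying libraries.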

How the results depend on the processing

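Requiring an adjusted p under 0.05, 0 genes passed in polysomal RNA, 0 in TE and 0 in 3′ ends, in place of 1, 1 and 2. With an unadjusted p, 4 passed for polysomal against total RNA in control cells in place of 0. DESeq2 gave 2 for polysomal RNA, and RLE normalization 1 for 3′ ends. With a deposited combined p under 0.05, 4 of the 12 genes kept a CRAC site (Cox6c, Cox7a2l, Cox8a and Ndufa4). The share of all target genes that kept one is not given, so the 4 cannot be compared with other targets. Over subunits alone the median 3′ end change was 0.0098 in place of -0.002.

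The labels link same-numbered RNA-Seq and POL-Seq libraries by a number alone, and whether they came from the same cells is not given there. Correlations of their deviations were 0.188 to 0.388, all above 0. With a replicate block 1 gene, Sdhc, had an unadjusted p under 0.05 in total RNA in place of 0 (918 of all 14906 genes), 11 had one in 3′ ends, and in the comparison of polysomal with total RNA of HuD cells Ndufc2 and Cox7b2 had adjusted edgeR p-values of 0.0240 and 0.0404. There 12 genes were higher and 2 lower at an unadjusted p under 0.05, in place of 8 and 0. For the ratio in control cells 3 were higher and 5 lower, in place of 2 and 2, and 0 passed an adjusted p as without the block. The counts for polysomal RNA and TE were as without it.

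Leaving out 1 library at a time, the genes with an unadjusted p under 0.05 ranged from 0 to 37 in polysomal RNA, 0 to 38 in TE, 0 to 1 in total RNA and 1 to 6 in 3′ ends, and those past an adjusted p for the ratio in control cells from 0 to 27. The 37, 38 and 27 came without control polysomal library 1, where 3262, 2024 and 2145 of all 14906 genes passed. The medians ranged from -0.048 to 0.12 in polysomal RNA, 0.0185 to 0.21 in TE, -0.12 to -0.044 in total RNA, -0.0731 to 0.0656 in 3′ ends and -0.13 to 0.0505 for the ratio in control cells. The TE change of Ndufc2 ranged from 0.26 to 0.40. The cause was not tested. An arm left with 1 library was assumed to vary like the others. The changes of Cox6a2, Ndufc2, Atp5f1, Cox7b2, Cox7c, Atp5j and Cox6b2 that had an unadjusted p under 0.05 kept their direction under these alternatives. Others did not, as 4 of the 11 complex IV subunits remained above 0 in TE without control polysomal library 2.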
